A study of Danio rerio with 36 samples.

Results

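The Cadm family of cell adhesion molecules has 6 zebrafish genes in these data, cadm1a, cadm1b, cadm2a, cadm2b, cadm3 and cadm4. They were taken by gene symbol from the deposited tables of differentially methylated regions (DMRs) found in sperm, out of 20225 symbols with a DMR within 5000 bases. A locus runs from the first to the last DMR within 5000 bases of the gene. The 6 loci hold 339 of the 224130 DMRs of the second generation (G2) and 1 of the 243 DMRs of the fourth generation (G4), and 26793 of the 23946533 CpGs listed. The single G4 DMR lies in cadm4. The genes and the ends of the loci were thus chosen by measured values, the methylation differences of the G2 and G4 sperm comparisons, so levels in these comparisons are given below as a description, with no test. Whole body did not enter the choice, but the G2 DMRs came from sperm of the same dnmt1 genotypes. G2 wild-type sperm and G4+ sperm each entered it as 1 arm, so comparisons that use them are not independent of it.

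Whole genome bisulfite sequencing was carried out on 18 fish of mixed background, 3 in each of 6 groups. Whole bodies at 18 dpf (days post fertilization) came from dnmt1+/+ (wild-type) and dnmt1-/- fish, and G2 sperm came from males of the same genotypes. G4 sperm came from genotypically wild-type males descended from mutants, either transmitting (G4*) or non-transmitting (G4+). Some, but not all, offspring of G4* males with wild-type females have impaired larval T cell development. The dnmt1-/- fish carry a hypomorphic missense allele and retain some activity of Dnmt1, the enzyme that copies CpG methylation to the new strand after replication, and the whole body is a mixture of cell types. A value is the percentage of reads methylated at a CpG, and the share of cells and the share of alleles that carry the mark cannot be told apart in it. Values were present for 41.1 to 66.3% of CpGs per fish. The mean over all CpGs was 80.4 to 81.3% in wild-type body, 53.4 to 53.7% in mutant body, and 89.5 to 90.2% in the sperm of G2 wild-type, G4+ and G4* males. The first G2 mutant male stood apart, at 58.8% against 70.0% and 67.7% in the others. The files hold no RNA, so the sperm label could not be checked by expression.

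Cadm proteins, also called SynCAM or nectin-like proteins, are membrane proteins of the immunoglobulin superfamily that bind each other between neighbouring cells. They are best known from mammals at synapses and on myelinated axons, where Cadm3 on the axon binds Cadm4 on the Schwann cell. Cadm1 is widely expressed in epithelia and brain, and in the mouse it also joins developing sperm cells to Sertoli cells. Cadm2 is mainly neuronal. Zebrafish has 2 copies of Cadm1 and of Cadm2. CpG methylation is the default state of most vertebrate DNA, and stretches dense in CpGs that escape it often lie at gene starts.

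The loci differ in size more than in CpG content. In danRer10 (GRCz10), cadm1a (ENSDARG00000031075) spans chr21:23911956-24378316, or 466.4 kb with 7927 CpGs and 106 G2 DMRs. The copy cadm1b (ENSDARG00000042677) spans chr15:18712344-19058735, or 346.4 kb with 6299 CpGs and 68 G2 DMRs. The cadm2a locus (ENSDARG00000009930) is chr10:23242832-23393825 with 2434 CpGs and 31 G2 DMRs, and its copy cadm2b (ENSDARG00000062633) is chr15:8030405-8176349 with 2955 CpGs and 26 G2 DMRs. The cadm3 locus (ENSDARG00000057013) is chr2:44195690-44319128, with 1977 CpGs and 33 G2 DMRs. The cadm4 locus (ENSDARG00000040291) is chr16:24295120-24587014, with 5201 CpGs and 75 G2 DMRs beside the G4 DMR. CpG density was 16.0 per kb in cadm3 to 20.2 per kb in cadm2b, around the 17.9 per kb of the 25 chromosomes. Exons, introns and promoters of this build were not used here, so positions are given only as inside or outside the nearest gene of the deposited tables.

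The gene cadm4, which encodes the Schwann cell partner of Cadm3 in mammals, held an unmethylated stretch that was methylated in the sperm of all 3 G4* males and in no other group. The G4 DMR lies inside the gene at chr16:24451373-24451759 and holds 27 CpGs. In G4* sperm its level was 68.4%, 69.7% and 52.9% (63.7% ± 9.36, SD, n = 3). In G4+ sperm it was 0.594%, 0.435% and 0.168% (0.399% ± 0.215, SD, n = 3). The difference of 63.3 percentage points is the one by which the region was found, and it was not tested. G2 wild-type sperm was at 0%, 0.298% and 0.167%, and G2 dnmt1-/- sperm at 0.362%, 0.774% and 0.397%. The stretch was thus also unmethylated in mutant males of G2. Whole body was at 0%, 2.31% and 0% in wild-type fish and at 1.19%, 0.238% and 0% in dnmt1-/- fish. The lowest of the 3 G4* values, 52.9%, was far above the highest of the other 15 fish, 2.31%.

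The single CpGs show where the stretch ends, taken as the last CpG on each side before one with a mean of 50% or more over wild-type body, G2 wild-type and G4+ sperm. It runs over 39 CpGs in 840 bases, chr16:24451155-24451994, and reaches 10 CpGs before and 2 CpGs after the DMR. At 46.4 CpGs per kb it is denser than the locus as a whole, which has 17.8 per kb. In the other 15 fish, 368 of 395 CpG values in the stretch were exactly 0, and 3 were over 10%, the highest at 46.7%. In G4* sperm none of 104 values was 0, and they ran from 33.3 to 90.9%, with medians of 65.5%, 69.0% and 53.3% in the 3 males. The methylation was therefore absent at no CpG measured and mostly intermediate. Read depth is unknown, so the highest values cannot be told from full methylation. All 3 values over 10% belonged to the last CpG of the stretch, 24451994, which was at 13.3% in a G2 wild-type male, 46.7% in a G2 mutant and 40% in the only G4+ male with a value, against 41.7%, 90.9% and 54.5% in G4* males. The mean of the whole stretch was 65.2%, 67.6% and 54.5% in G4* males against 0.458%, 1.89% and 0.134% in G4+ males. The DNA on both sides was on average methylated in every group. The 12 CpGs of the kilobase before it had group means of 63.3 to 89.7%, and the 8 CpGs of the kilobase after it 54.3 to 93.5%, each lowest in G2 dnmt1-/- sperm.

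**Figure D1:**
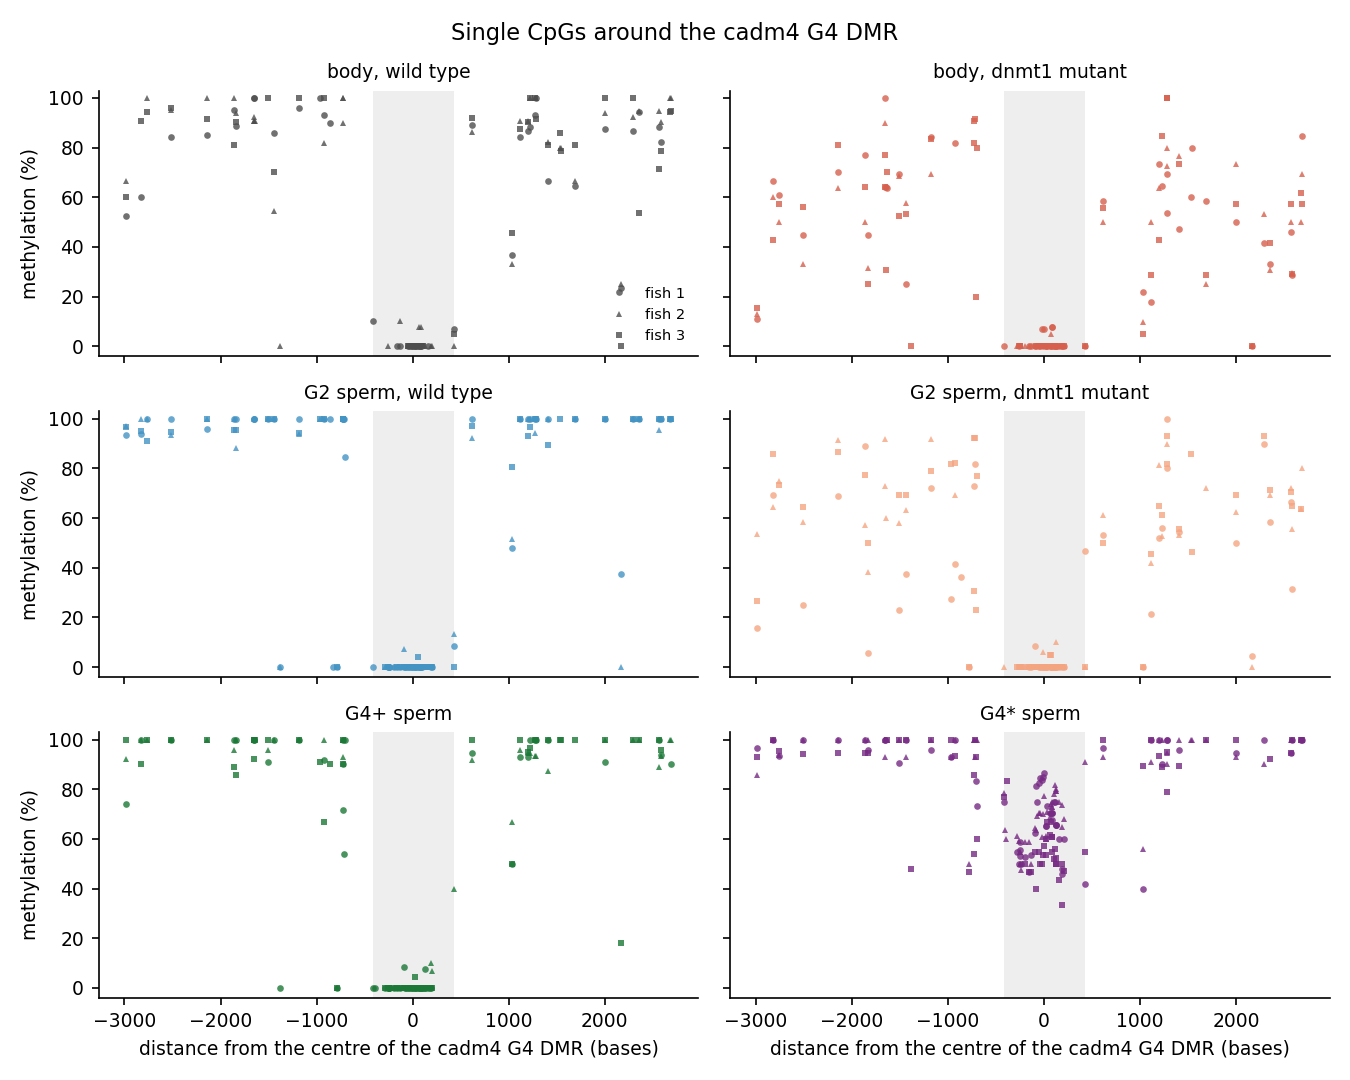
Methylation of single CpGs (percent of reads) against the distance in bases from the centre of the cadm4 G4 DMR, 1 panel per group, with a different symbol for each of the 3 fish and the stretch of 39 CpGs shaded grey. Values in the stretch are nearly all at or near 0 in 5 groups, the highest being 46.7%, and between 33.3 and 90.9% in G4* sperm, while most CpGs on both sides are methylated in all groups.

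In the following comparisons, levels at this stretch were low in both groups. The ends of the stretch were set by the mean over wild-type body, G2 wild-type and G4+ sperm. Differences among these groups reuse those values and are given as a description. In the kilobase that holds it, 24451001 to 24452000, dnmt1-/- bodies and wild-type bodies differed by -0.340 percentage points over 7 CpGs (adjusted p = 0.456, limma). Wild-type bodies were at most at 1.81% there, so a fall large enough to be called was not possible. A rise was possible, but mutant bodies were at most at 1.02%. Wild-type sperm and wild-type body differed in this kilobase by -0.0706 points over 8 CpGs. G4+ sperm, whose low level was part of how the DMR was found, differed from G2 wild-type sperm by 0.192 points. Every fish of these groups had a mean of 1.89% or less in this kilobase.

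Along the rest of the cadm4 locus, single CpGs picked as raised in G4* sperm, and missing values, are given as a description, with no test. Outside the stretch, 33 of 5162 CpGs of cadm4 were at 10% or less in every other fish with a value (at least 3 of them) and at 30% or more in a G4* male. The median of their 63 G4* values was 50%, with a range of 5.56 to 88.2%. At position 24446587, for example, the level was 0% in the other 15 fish and 65.2%, 48.0% and 50% in G4* sperm. Values were fewer at others of the 33. No G4+ male had a value at 24399904 or 24326986, and only the third G4* male had a value at 24302082. Not all of the 33 thus compare G4* with G4+ sperm. Only 62 CpGs of cadm4 outside the stretch were at 10% or less in the other fish, so these 33 were most of the CpGs that could meet the rule. In cadm1a the rule found 1 of 81 such CpGs and in cadm2b 0 of 25, while cadm1b had 9 to start from, cadm2a 0 and cadm3 1, and none was found there. Applied to G4+ males it found 0 of 28 in cadm4, 1 of 11 in cadm1b, 2 of 2 in cadm2a and 1 of 24 in cadm2b. CpGs raised in G4* males could not be among these 28, so the 0 of 28 is not a like control. No share over the genome is given for this rule. Applied to G2 wild-type sperm it found 1 of 80 in cadm1a and 2 of 28 in cadm2b. Applied to wild-type bodies it found 15 of 38 in cadm1b and 2 of 29 in cadm2b. This rule was set after the values had been seen. It picks CpGs for a high level in a G4* male, so their G4* levels follow in part from the rule. The 33 CpGs lie at distances of -149073 to 11290 bases from the stretch. Some lie close together, such as those at 24403428, 24403449 and 24403474. In addition, 146 CpGs of cadm4 (280.7 per 10000) had a value in all fish of 1 G4 group and in none of the other, 134 of them in G4+ sperm only, against 75.0 per 10000 over all CpGs. The rate was 123.3 in cadm2a and 20.2 to 47.9 per 10000 in the other 4 genes. Of such CpGs, 102868 of 179589 over the genome and 27 of 30 in cadm2a had values in G4+ sperm only. In the G2 comparison the rate was highest in cadm3, at 581.7 per 10000, against 92.7 over all CpGs and 36.5 in cadm4. None of the 156 CpGs in the DMR and the 5000 bases on either side was of that kind, but at these rates few would be. Of the 33 CpGs above, those at 24446587, 24450184, 24450783 and 24456680 lie in this span. The authors set positions with a sequence variant to missing, and the part of sequence differences between the males in these values was not tested.

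Chromosome 16, which carries cadm4, also holds 68 of the 243 G4 DMRs. The nearest to the locus, 10.2 kb away and 166.5 kb from the cadm4 DMR, is assigned to rps19, a ribosomal protein gene, at chr16:24283505-24284913. There G4* sperm was at 53.3%, 60.3% and 50.1%, and G4+ sperm at 4.27%, 5.15% and 4.75%. It thus moved in the same direction as cadm4. The next, assigned to tyrobp, an adaptor of immune receptors, lies 836.2 kb away and moved the other way, with means of 96.0% in G4+ and 68.5% in G4* sperm. Of the chromosomes of the paralogs, chromosome 15 with cadm1b and cadm2b holds no G4 DMR, chromosome 21 with cadm1a holds 1, chromosome 2 with cadm3 holds 2 and chromosome 10 with cadm2a holds 21, the nearest of them 68.1 kb from cadm2a.

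The 5 kilobases whose levels over the 18 fish were most like those of the cadm4 DMR, by root mean square difference, all lay on chromosome 16 and all overlapped a G4 DMR. They were chosen for this likeness. The closest, at zgc:162160, differed by 2.80 percentage points per fish and the next, at ankrd28b, by 8.22 points. Those at rps19 (11.4 points), abcb4 (13.0 points) and skap2 (13.7 points) followed. The overlapping DMRs lie inside zgc:162160, abcb4 and skap2. They lie outside ankrd28b, at a distance of 6281 bases, and outside rps19, at a distance of -3211 bases. The kilobase at zgc:162160 was at 62.4%, 64.7% and 59.5% in G4* sperm and at 0.20%, 0.368% and 0.421% in G4+ sperm. It matches cadm4 in that the other groups were also near 0, whereas rps19 was at 15.5 to 29.7% in wild-type body. Of 17801 kilobases under 20% in the other 15 fish, only those at cadm4, ankrd28b and zgc:162160 were over 40% in all 3 G4* males. This list depends on the cuts. The kilobase at abcb4 missed it through the third G4+ male, at 20.96%, and that at rps19 through wild-type bodies at 29.4% and 29.7%. That at skap2 missed both cuts, with the first G4* male at 39.8%. The cadm4 DMR was found by its G4* minus G4+ difference, so no rarity is read from its place in this list.

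**Figure D2:**
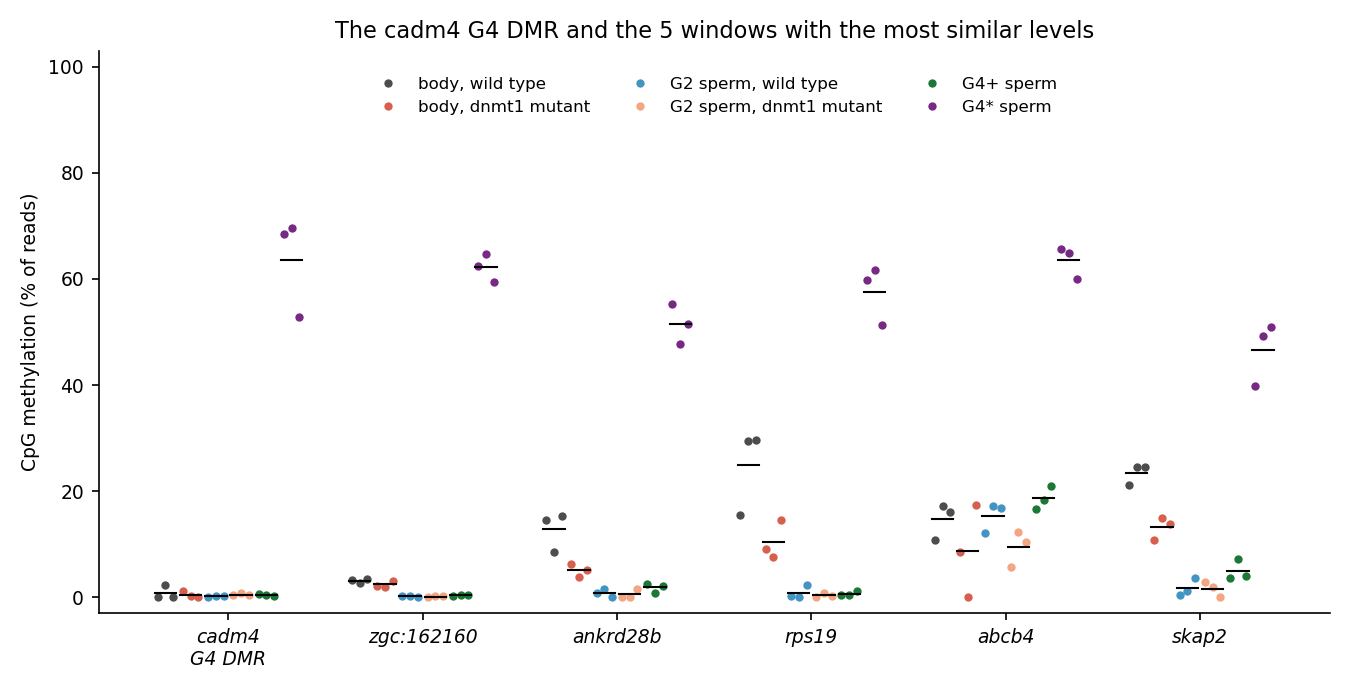
Methylation (percent of reads) of the cadm4 G4 DMR and of the 5 kilobases with the most similar levels, 1 point per fish, with the 6 groups in 6 colours and black bars at the group means. G4* sperm is the high group in all 6 columns, with cadm4 at 52.9 to 69.7%, and wild-type body is highest at rps19 and skap2.

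Among kilobases with at least 5 CpGs in each of the 18 fish, 1 of 800 in the loci (0.125%) had a mean under 20% in wild-type body or G2 wild-type sperm, against 4.08% of all kilobases. The loci begin and end at DMRs, so unmethylated kilobases beyond the outermost DMR fall outside them. No deficit against the genome is therefore read from this share. A minimum of 3 CpGs per fish was used to find more kilobases under 20%. Kilobases under 20% in wild-type body or wild-type sperm were found in the loci of cadm1a and cadm4 only. At the start of the cadm1a locus, chr21:23916001-23917000 (30 CpGs) was at 1.67%, 0% and 0% in wild-type body, and its highest value in any of the 18 fish was this 1.67%. Its neighbour, 23917001 to 23918000 (31 CpGs), reached at most 1.12%, in a G2 dnmt1-/- male. These CpG-dense kilobases of cadm1a were near 0 in G4* sperm also, at 0.510%, 0% and 0.227% in the first and 0.325%, 0% and 0% in the second. Within 10000 bases outside the loci, cadm1b had a kilobase of 52 CpGs at no more than 0.769% in any fish, at chr15:18710001-18711000. The kilobase before it, from 18709001, was uneven, at 1.04%, 18.6% and 0% in wild-type body and at 27.4%, 58.7% and 50% in G4* sperm, with G4+ sperm at 30.1%, 59.6% and 22.2%. Outside the cadm3 locus, 4 such kilobases were found. Those from 44185001 (69 CpGs) and from 44329001 (72 CpGs) were at no more than 1.31% in any fish, while those from 44191001 and 44328001 had group means of 3.98 to 13.5% and 5.98 to 15.6%. The kilobase from 44191001 was at 7.26%, 22.0% and 11.1% in G4* sperm and at 0%, 5.91% and 17.2% in G4+ sperm, which overlap. No kilobase of this kind was found in or within 10000 bases of cadm2a and cadm2b.

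In whole body, all 6 loci were less methylated in dnmt1-/- fish than in wild-type fish, by 28.6 to 33.1 percentage points over CpGs measured in all 6 fish. The cadm1a locus, over 2084 CpGs, was at 83.1%, 82.5% and 82.1% in wild-type and at 53.9%, 54.2% and 53.7% in dnmt1-/- bodies, a difference of -28.6 points. The cadm1b locus, over 1143 CpGs, was at 85.2%, 85.1% and 85.4% against 53.0%, 52.3% and 52.8%, a difference of -32.5 points. In both copies of Cadm1 the fish of a genotype lay close together and the genotypes far apart. The cadm2a locus, over 588 CpGs, fell from 84.3% ± 0.325 to 51.2% ± 0.343 (SD, n = 3), and the cadm2b locus, over 592 CpGs, fell from 83.4% ± 0.239 to 52.9% ± 0.832. The neuronal gene cadm3, over 603 CpGs, was at 82.8% ± 0.803 against 51.3% ± 0.406 (SD, n = 3). The cadm4 locus, over 1641 CpGs, was at 83.1%, 83.7% and 82.8% against 51.9%, 52.5% and 51.2%. In each of the 6 loci every mutant fish lay below every wild-type fish, and the exact two-sided permutation test gave p = 0.1, the smallest p that 3 against 3 fish allow (adjusted p = 0.1 over 12 locus tests, 6 of them between tissues).

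**Figure D3:**
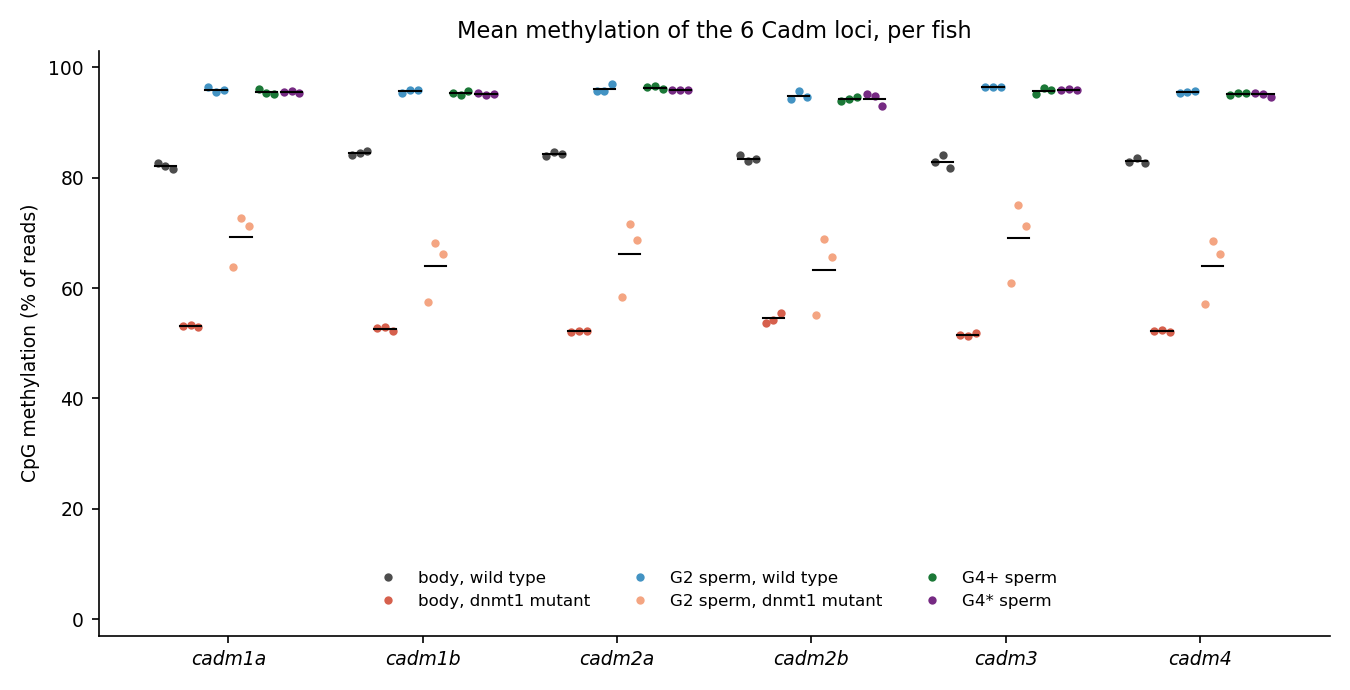
Mean methylation (percent of reads) of the 6 Cadm loci over the CpGs with a value in a fish, 1 point per fish, with the 6 groups in 6 colours and black bars at the group means. Sperm of G2 wild-type, G4+ and G4* males overlaps at 93.0 to 97.0%, wild-type body follows, and mutant body and G2 mutant sperm are lowest, with 1 mutant male below the other 2 in every locus.

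Nearly all tested kilobases of the loci were lower in mutant bodies. Kilobases with at least 5 CpGs measured in all 6 fish were tested with limma over the whole genome and called at an FDR under 5% with a difference of at least 20 percentage points. Of the 579 kilobases tested in the 6 loci, 536 (92.6%) were called lower in dnmt1-/- bodies, where 81.7% of all kilobases of the genome were called lower. The loci were drawn from DMRs of dnmt1-/- sperm, so they are not an independent sample of the genome. No excess over the genome is therefore read from the counts or medians given here. None of the 579 was called higher (0.0062% of all kilobases), and none of them had a higher mean in the mutants. A further 810 kilobases of the loci had a level in both groups but too few CpGs for the test, and 4 of them were higher in the mutants, among them that of cadm1a from 24001001, with means of 69.4% in wild-type and 77.1% in mutant bodies. By gene, 165 of 185 kilobases were lower in cadm1a, 93 of 98 in cadm1b, 49 of 50 in cadm2a, 48 of 52 in cadm2b, 55 of 57 in cadm3 and 126 of 137 in cadm4. The median difference was -30.6 points over the family and -28.3 points over all kilobases. It ranged from -28.6 points in cadm1a to -33.8 points in cadm2a. The fall was deepest in cadm2b at chr15:8156001-8157000, from 82.8%, 84.4% and 82.7% to 36.0%, 28.1% and 37.0%. All but 1 of the 579 kilobases differed at an FDR under 5%. The exception was the unmethylated stretch of cadm4, where wild-type bodies were already too low for a fall of the size called.

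**Figure D4:**
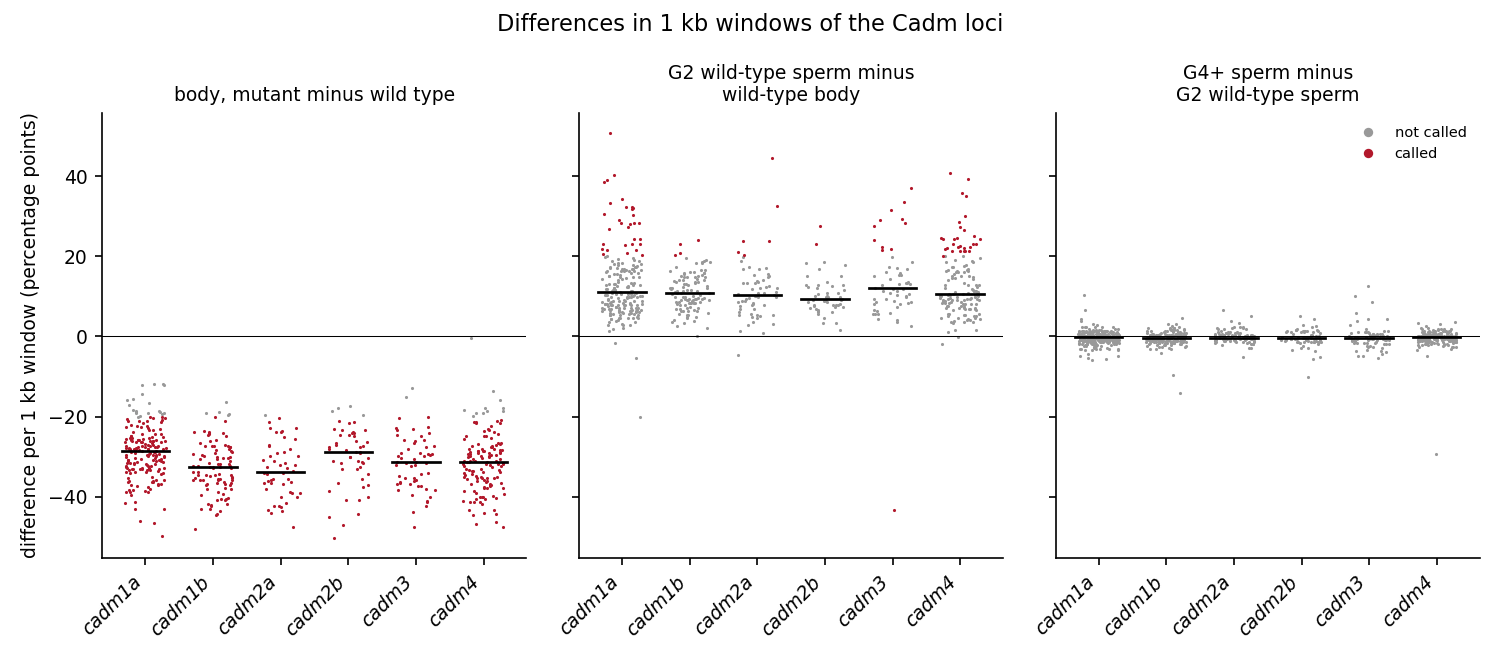
Differences in methylation (percentage points) for each kilobase of the 6 loci, 1 point per kilobase, in 3 panels: mutant minus wild-type body, wild-type sperm minus wild-type body, and G4+ minus G2 wild-type sperm. Called kilobases are red, the others grey, and black bars are medians: nearly all are called lower in mutant body, 83 are called higher in sperm, and none is called between the generations.

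The DMRs themselves, which had been found in sperm of other fish, were also lower in mutant bodies. Of the 339 G2 DMRs of the family, 316 (93.2%) were called lower in dnmt1-/- bodies by limma, against 84.6% of all G2 DMRs tested, and the differences ran from -9.33 to -49.9 points. By gene the count was 97 of 106 in cadm1a, 61 of 68 in cadm1b, 31 of 31 in cadm2a, 25 of 26 in cadm2b, 32 of 33 in cadm3 and 70 of 75 in cadm4. One DMR per gene is given as an example, the largest by CpGs of those inside the gene. In cadm1a, chr21:23968601-23970577 (67 CpGs) was at 84.8%, 87.4% and 84.9% in wild-type and 57.9%, 61.2% and 61.1% in mutant bodies (adjusted p = 1.22e-05, limma). In cadm3, chr2:44288779-44289874 (34 CpGs) fell further, from 81.7%, 77.6% and 88.5% to 40.8%, 47.6% and 45.2% (adjusted p = 1.61e-05, limma). The other examples lay between these in the size of the change, apart from cadm2b. The DMR chr15:18989173-18990593 of cadm1b (54 CpGs) differed by -26.3 points, and chr10:23254178-23255894 of cadm2a (46 CpGs) by -28.4 points. The DMR chr15:8150310-8151340 of cadm2b (52 CpGs) differed by -23.3 points. The DMR chr16:24385007-24387948 of cadm4 (75 CpGs) was at 83.6%, 85.0% and 82.2% against 55.1%, 57.9% and 56.0% (adjusted p = 1.12e-05, limma). In every example the 3 mutant fish lay below the 3 wild-type fish.

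Wild-type sperm was more methylated than wild-type body in all 6 loci, by 10.7 to 14.0 percentage points. The loci were drawn from DMRs that used the same G2 wild-type sperm, so these values are a description, and no excess over the genome is read from them. The locus means rose by 10.7 points in cadm2b, 11.9 in cadm1b, 12.5 in cadm2a, 13.1 in cadm4, 13.8 in cadm3 and 14.0 in cadm1a. In cadm4, over 1743 CpGs, wild-type body was at 83.4% ± 0.555 (SD, n = 3), and G2 wild-type sperm was at 96.5%, 96.5% and 96.3%. In cadm2b, over 615 CpGs, body was at 84.4% ± 0.295 (SD, n = 3), and sperm was at 95.0%, 95.2% and 95.0%. The groups did not overlap in any locus. Of 637 kilobases tested by limma, 83 (13.0%) were called higher in sperm, against 9.23% of all kilobases, and 1 was called lower, against 0.455%. By gene, 31 of 206 were higher in cadm1a, 4 of 111 in cadm1b, 6 of 62 in cadm2a, 2 of 50 in cadm2b, 11 of 58 in cadm3 and 29 of 150 in cadm4. Differences between genes in these counts were not tested. Without the third wild-type body the count of cadm1b was 7, and without the first wild-type body that of cadm2b was 4.

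The difference between wild-type sperm and wild-type body was largest in cadm1a, at chr21:23990001-23991000. Wild-type body there was at 43.1%, 44.8% and 44.1%, and G2 wild-type sperm at 97.8%, 97.0% and 98.2% (a difference of 50.7 points). Mutant body was lower still, at 17.9%, 17.2% and 20.4%, so this kilobase was partly methylated in body and nearly fully methylated in sperm. In cadm2a, the kilobase from 23273001 was at 59.1%, 50.7% and 52.0% in body and at 97.1%, 96.8% and 97.0% in sperm. In cadm4, the kilobase from 24429001, which lies before the stretch, was at 70.7%, 67.5% and 66.7% in body and at 98.9%, 97.1% and 96.2% in sperm. In cadm3, the kilobase from 44269001 rose from 55.8%, 71.0% and 61.2% to 97.1%, 98.1% and 98.2%. The largest differences of cadm2b and cadm1b were smaller, at 27.5 and 23.9 points. These 4 kilobases of cadm1a, cadm2a, cadm3 and cadm4 stood at 94.9% or more in every G4+ and G4* male.

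The 1 kilobase called lower in sperm lies at the end of the cadm3 locus, from 44319001, and overlaps it by 128 bases only. Wild-type body was at 84.8%, 79.6% and 87.7% there, and G2 wild-type sperm at 40.7%, 42.3% and 54.2% (a difference of -43.3 points over CpGs measured in all 6 fish). Fish of 1 group differed widely at this place: G4+ sperm was at 97.5%, 44.5% and 49.3%, and G4* sperm at 97.3%, 61.1% and 55.6%. Levels near 50% and near 100% occurred in both G4 groups, and G2 dnmt1-/- sperm, at 74.0%, 52.2% and 73.5%, was above or within the range of its wild type. The call was lost with at least 10 CpGs per kilobase, in windows of 2000 or 500 bases and in windows shifted by 500 bases, and without the third G2 wild-type male 2 kilobases were called lower.

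Sperm of G4+ males differed little on average from sperm of G2 wild-type males in the 6 genes. Both groups had entered the choice of the genes. Of 893 kilobases tested by limma, 0 were called in either direction, where 0.0549% of all kilobases were called lower and 0.0385% higher. At an unadjusted p under 0.05 (limma) there were 62 of the 893 kilobases, where 60791 of all 669711 kilobases were found, a larger share. The lowest adjusted p in the loci was 0.124 (limma). The median difference was -0.280 points in the loci and -0.323 points over all kilobases. The largest difference was in cadm4, from 24362001, where G2 wild-type sperm was at 94.3%, 98.3% and 88.0% and G4+ sperm at 74.9%, 67.3% and 65.3% (adjusted p = 0.229, limma). G4* males varied more at that place, at 64.1%, 96.4% and 53.9%. The labels give no preparation dates, so generation and preparation cannot be told apart in this comparison.

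In the G2 comparison, by which the loci were drawn, the sperm of dnmt1-/- males was lower throughout the family. The cadm4 locus was at 95.3%, 95.5% and 95.7% in wild-type and at 57.1%, 68.5% and 66.3% in dnmt1-/- sperm. The cadm3 locus was at 96.3% in each of the 3 wild-type males and at 60.9%, 75.0% and 71.3% in mutant sperm. The mutant means of the other genes were 69.2% ± 4.76 in cadm1a, 64.0% ± 5.67 in cadm1b, 66.2% ± 6.93 in cadm2a and 63.2% ± 7.23 in cadm2b (SD, n = 3). The first mutant male was the lowest at all 6 loci, as over the genome. The cadm4 kilobase from 24362001 had the largest G2 difference of the family, -73.1 points, with mutant sperm at 6.99%, 45.7% and 13.0%.

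Over the whole loci, G4* and G4+ sperm differed by less than 0.5 percentage points in all 6 genes. The locus means of G4* minus G4+ were -0.0302 points in cadm1a, -0.197 in cadm1b, -0.463 in cadm2a, 0.0546 in cadm2b, 0.216 in cadm3 and -0.148 in cadm4. For cadm4 the sign depended on which CpGs were averaged, and it was 0.37 points over CpGs measured in all 12 sperm samples. Without the stretch the difference in cadm4 was -0.707 points over the CpGs with a value in a fish, -0.292 points over the 2275 CpGs measured in all 6 G4 fish, and -0.222 points over the 1618 CpGs measured in all 12 sperm samples. Over those 2275 CpGs G4+ sperm was at 96.9%, 96.7% and 96.7% and G4* sperm at 96.4%, 96.6% and 96.4%. The groups did not overlap there, but they did over the 1618 CpGs. The example DMRs differed little between the G4 groups, the most in cadm4, at 94.8%, 98.3% and 97.6% in G4+ and 93.6%, 94.4% and 94.6% in G4* sperm. The kilobase from 24385001, at the start of that DMR, was at 97.0%, 98.5% and 97.9% in G4+ and at 85.8%, 87.0% and 84.5% in G4* sperm. The kilobase of cadm1a from 24041001 varied in all sperm groups, at 50.7%, 52.1% and 63.7% in G4+ and at 48.4%, 11.6% and 43.6% in G4* sperm.

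**Figure D5:**
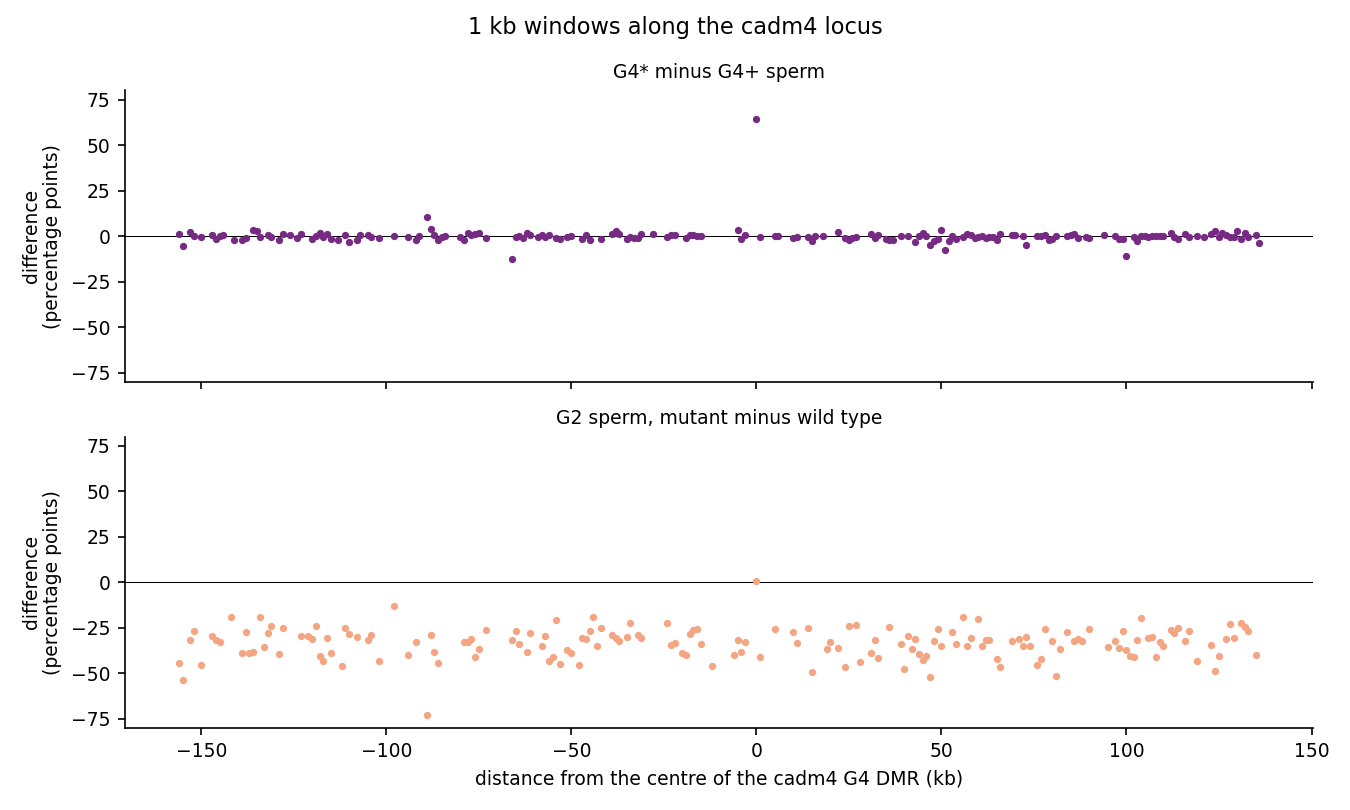
Differences in methylation (percentage points) for each kilobase along the cadm4 locus against its distance in kb from the centre of the G4 DMR, 1 point per kilobase, for G4* minus G4+ sperm in the upper panel and mutant minus wild-type G2 sperm in the lower panel. At the DMR the differences are 64.1 points in G4 and 0.706 points in G2, while the other kilobases lie between -12.6 and 10.4 points in G4 and below 0 in G2, down to -73.1 points.

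Genes whose products work with Cadm proteins, and the related nectins, were also mostly lower in mutant bodies. The nectins, a neighbouring adhesion family, were represented by 5 of 12 listed symbols, some of which are alternative names, and 136 of their 165 kilobases (82.4%) were called lower, with a median of -27.5 points. Of the proteins that bind the cytoplasmic tails of Cadm proteins in mammals, the band 4.1, Cask and Mpp scaffolds, 14 of 17 symbols were found, and 266 of 321 kilobases (82.9%) were lower, with a median of -27.6 points. The shares of both lists were near the 81.7% of the genome. Among the scaffolds, 46 of 50 kilobases were lower in epb41a, 65 of 81 in caska and 2 of 4 in mpp1. The adaptor mllt4a, which links nectins to actin in mammals, had 81 of 104 kilobases lower. Of germ line genes, 46 of 51 kilobases (90.2%) were lower, and of neural and myelin genes 39 of 43 (90.7%). The loci of all these lists were drawn by the same rule as the Cadm loci. The germ line and neural shares, of fewer kilobases, were close to the 92.6% of the Cadm loci, and those of the nectins and scaffolds were lower. Differences between the lists were not tested, and none is read from these shares. In wild-type sperm against body, 37 of 177 kilobases of nectin genes were called higher in sperm, 22 of them among the 89 of pvrl2l, against 9.23% of all kilobases. Of the scaffold genes 30 of 362 were called higher and 2 lower, of mllt4a 17 of 113 higher, of germ line genes 4 of 62 higher and 1 lower, and of neural and myelin genes 7 of 43 higher.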

How the data were processed

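Genomic DNA of 18 fish was sequenced after bisulfite conversion from 2 libraries per fish (36 libraries), which the authors merged, so the fish was the replicate. The authors trimmed reads with cutadapt 1.9.1, mapped them to danRer10 with BWA 0.7.12, removed duplicates with Picard 1.136, profiled methylation bias with MethylDackel 0.1.7 and counted methylated reads with methylCtools. The deposited values are the fraction of methylated reads per CpG, printed here as percent, with no further normalization by the authors. CpGs with fewer than 10 reads or with a variant at an allelic frequency of 0.25 or more are missing, and which of these applied cannot be told apart. Read depth per CpG is unknown, so no counting interval was calculated, and precision rests on 3 fish per group.

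The authors found the DMRs with metilene and limma, and assigned the nearest gene. Interval, gene and distance were used from these tables, and their columns of group means and test results were not. Tables that evaluate these DMRs in another generation, and a table of mean levels of 12 loci in whole body, were not used here. The labels call the G2 sperm generation 1, and the study's text G2. The columns of G4 males carry short names, which were assigned to G4+ and G4* from these names and the study's lists. No pair of fish held the same values: at most 1.68% of kilobases were identical between 2 fish of a comparison. All 6 gene IDs were matched by symbol.

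Analyses used R 4.3.3, limma 3.58.1, Python 3.11.15, numpy 2.4.6, pandas 2.3.3 and scipy 1.17.1. Means of 1 kb windows with at least 5 CpGs measured in all 6 fish were tested genome-wide with limma on the logit scale (offset 0.01), with Benjamini-Hochberg adjustment over all windows. A window was called where the FDR was below 5% and the means were 20 or more percentage points apart. Test differences are over CpGs measured in all 6 fish, and levels per fish over CpGs with a value in that fish. DMR means in body required values at 20% of CpGs or more. Locus means were compared by exact two-sided permutation. The tests were tried on simulated data. Alternatives were other offsets, scales, window sizes, CpG minimums and thresholds, a replicate block and leaving out each fish.

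The members and gene lists were chosen with earlier results of these data known. Named by rule were the 6 genes, every G4 DMR, the G2 DMR nearest each gene (ties by most CpGs), kilobases under 20% in wild-type fish, and the 5 windows most like the cadm4 DMR. Kilobases with the largest differences, and single CpGs, were named after their values were seen.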

Additional observations from a re-analysis of the deposited data

How the results depend on the processing

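With the CpG minimum set at 10, 165 of 183 kilobases were lower in mutant body (74.5% of all), and with a minimum of 2, 994 of 1081 (83.2%). Without a minimum difference 578 of 637 kilobases were higher in wild-type sperm than in body (78.5% of all), and with 10 points 346 of 637 (37.4%). With at least 10 CpGs the count was 35 of 191 (7.36% of all), and with at least 2 CpGs 165 of 1135 (11.8%). The 1 kilobase lower in sperm was no longer called (0) with at least 10 CpGs, in windows of 2000 or 500 bases, or in windows shifted by 500 bases, and there were 2 without the third G2 wild-type male. The G4* minus G4+ difference was 0 for cadm2a by the median of CpGs, and for cadm4 0.37 over CpGs measured in all 12 sperm samples. The difference between G2 mutant and wild-type sperm at the cadm4 G4 DMR was 0 by the median. Leaving out each fish gave 526 to 543 kilobases lower in body, 81 to 89 higher and 1 to 2 lower in sperm, and 0 between generations. Of the values per comparison, 14 moved and 256 stayed close to those reported, and 42 values of single genes moved too. The small G4* minus G4+ difference changed sign for cadm4 (above) and for cadm2b (-0.103) over CpGs measured in all 12 sperm samples, and no called result changed direction. With replicate number as a block, the counts were 536, 83, 1, 0 and 316 DMRs, as without it. The numbers name fish and do not pair them: same-numbered fish correlated at -0.0227 to 0.0392. Read depth is unknown, so no stricter minimum of reads could be tried.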
